A study of Mus musculus with 18 samples.

Results

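The replication-dependent histone genes encode the bulk of the histones that package newly made DNA. They were taken as the autosomal genes of the GENCODE vM1 annotation (NCBIM37 build) whose symbol starts with Hist1h, Hist2h, Hist3h or Hist4h, a rule that uses no measured value and that found 70 of 34653 autosomal genes. There were 6 genes of the linker histone H1, 20 of H2A, 19 of H2B, 12 of H3 and 13 of H4. The annotation gave 67 as protein coding and 3 as pseudogenes (*Hist3h2bb-ps*, *Hist1h2aj* and *Hist2h3c2*). Chromosome 13 held 56 of them, chromosome 3 held 10, chromosome 11 held 3 and chromosome 6 held 1 (*Hist4h4*). DNA methylation was read over each gene body plus 1 kb upstream and over flanks that ran from 1 to 5 kb beyond both ends, outside the other histone genes.

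The libraries were made by whole-genome bisulfite sequencing of mouse embryonic stem cells (ESCs) kept in serum and LIF, at days 1, 3, 6, 9 and 11. The 9 control libraries were labelled wild type, and the 9 *Dnmt1* KO libraries came from cells that had lost the maintenance DNA methyltransferase, by the methods after Cre recombination of a floxed allele with tamoxifen. Each genotype and day had 2 replicates, except day 6 with 1. The labels gave strain E14 for every library and the methods gave C57BL/6 for the floxed line, so a difference between genotypes and a difference between lines cannot be told apart.

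Libraries held 7190722 to 11158414 CpG calls, or on average 0.451 calls per autosomal CpG in a library. In mitochondrial DNA, which served as a level for unconverted cytosine, 0.228% to 0.467% of calls were methylated. A stretch of 39 neighbouring CpGs within *Dnmt1* (chr9:20744012-20745970) had 0 calls over the 7 *Dnmt1* KO libraries of days 3 to 11 and 6 to 29 calls in each control library. The 2 *Dnmt1* KO libraries of day 1 had 2 calls each. This stretch was picked within the gene because those 7 later libraries left it uncovered, so their 0 follows from the choice. It is therefore a description and no independent check of genotype. The cell type could not be checked against expressed markers, since the data hold methylation alone.

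Replication-dependent histone genes lie in clusters, carry no introns in their coding part and are transcribed in S phase, when the cell needs histones for the new chromatin. Their mRNAs end in a conserved stem-loop in place of a poly(A) tail, which the stem-loop binding protein SLBP holds during 3′ processing, export and decay. Their promoters are rich in CpG dinucleotides. In mammals most such promoters are kept free of methylation, whereas DNMT1 copies the methylation of other CpGs to the daughter strand at each division. A few members are used mainly in testis and oocytes: *Hist1h1t* encodes the linker histone of spermatocytes, and *Hist1h2aa* and *Hist1h2ba* encode the testis H2A and H2B, from neighbouring genes that point away from each other.

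The stem-loop is shown first because it marks most of the class in sequence terms that the rule did not use. A hairpin of 6 perfectly paired bases that starts with GG, around a loop of 4 bases, was searched on the coding strand in the 200 bp after the largest coding block of every autosomal protein-coding gene. It was found after 63 of 67 histone genes and, those included, after 154 of 21418 genes in all (0.719%). Most genes with a match were therefore outside the class. The 4 without a match in this window were *Hist2h2be*, *Hist2h2bb*, *Hist1h2an* and *Hist1h2al*. The 3 most frequent forms are given below, with the paired stem in capitals and the loop in lower case, and were carried by 39, 9 and 8 histone genes.
Form of 39 genes, *Hist1h1a* and *Hist1h2aa* included: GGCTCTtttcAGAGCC
Form of 9 genes, *Hist1h1t* and *Hist1h2ba* included: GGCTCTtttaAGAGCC
Form of 8 genes, *Hist1h4h* included: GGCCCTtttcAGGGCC

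Promoter sequences of 4 members are shown because methylation divides them. *Hist1h1t* and *Hist1h2aa* had the highest control levels among the genes tested, whereas *Hist1h1a*, a somatic linker histone gene, and *Hist2h2ac*, an H2A gene, were low. Each is the 250 bp before the annotated start, read 5′ to 3′ on the coding strand of NCBIM37, with CpGs in capitals.
*Hist1h1t*, chr13:23787430-23787679 (+): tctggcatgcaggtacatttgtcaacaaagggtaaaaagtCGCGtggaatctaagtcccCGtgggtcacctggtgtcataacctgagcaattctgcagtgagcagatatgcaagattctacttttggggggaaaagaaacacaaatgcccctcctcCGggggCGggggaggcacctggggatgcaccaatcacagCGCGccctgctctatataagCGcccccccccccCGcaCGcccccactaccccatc
*Hist1h2aa*, chr13:24026081-24026330 (+): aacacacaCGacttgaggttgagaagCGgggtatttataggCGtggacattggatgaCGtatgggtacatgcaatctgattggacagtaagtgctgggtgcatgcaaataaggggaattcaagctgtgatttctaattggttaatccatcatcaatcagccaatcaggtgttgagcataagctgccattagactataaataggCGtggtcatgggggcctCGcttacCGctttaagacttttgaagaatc
*Hist1h1a*, chr13:23855287-23855536 (+): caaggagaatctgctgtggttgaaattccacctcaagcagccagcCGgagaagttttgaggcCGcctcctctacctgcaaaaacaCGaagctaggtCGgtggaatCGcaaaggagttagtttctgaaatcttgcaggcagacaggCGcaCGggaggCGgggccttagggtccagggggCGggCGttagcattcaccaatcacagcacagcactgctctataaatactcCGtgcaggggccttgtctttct
*Hist2h2ac*, chr3:96024804-96025053 (-): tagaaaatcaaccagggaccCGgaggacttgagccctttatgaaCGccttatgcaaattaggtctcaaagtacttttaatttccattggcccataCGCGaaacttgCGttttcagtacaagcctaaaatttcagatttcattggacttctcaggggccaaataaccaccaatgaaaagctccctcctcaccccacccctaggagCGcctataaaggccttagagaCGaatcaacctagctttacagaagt

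These windows held 10, 7, 11 and 7 CpGs in the order shown. Whether the number of CpGs goes with the level at promoters was not tested. Over the 9 control libraries, 9 of 12 calls in the *Hist1h1t* window were methylated (75.0%, 95% exact interval 42.8 to 94.5) and 5 of 18 in the *Hist1h2aa* window (27.8%, 9.69 to 53.5). In the *Hist1h1a* window 0 of 16 calls were methylated, which allows a level of up to 18.8%, and in the *Hist2h2ac* window 0 of 52, which allows up to 5.77%. In *Dnmt1* KO libraries of days 6 to 11, 1 of 15 calls in the *Hist1h1t* window and 3 of 16 in the *Hist1h2aa* window were methylated.

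The usual histone promoter motifs were searched on both strands in the same 250 bp of all 21418 autosomal protein-coding genes. CCAAT was found before 57 of 67 histone genes (34.7% of all genes), TATAAA before 33 (12.4% of all genes) and the octamer ATTTGCAT before 15 (1.63% of all genes). All 15 octamers lay before H2A or H2B genes, 7 and 8, many of which share a promoter as a divergent pair. The AC box AAACACA, known from H1 promoters, was found before 5 of 6 H1 genes and before 9 histone genes in all (5.60% of all genes). These are matches of letters only.

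In control cells the histone genes stood out from their surroundings as poorly methylated. Over the union of their regions, 11.8% ± 1.92 of CpG calls were methylated (SD, n = 9 libraries; 8.81% to 14.2%), against 51.0% ± 4.88 over their flanks (42.8% to 56.3%). Within each control library the histone genes lay below their flanks, on average by 39.2 percentage points, and the same order held in 18 of 18 libraries. The control libraries of day 11 were the lowest in both, with 9.05% and 8.81% over the genes and 42.8% and 43.3% over the flanks.

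Over the histone genes the level was lower in *Dnmt1* KO cells from day 3 on. Over the flanks both *Dnmt1* KO libraries of day 1 already lay below both controls of that day, though within the range of all control libraries. The order of genes below flanks stayed in place. *Dnmt1* KO cells had 12.1% and 11.5% over the histone genes at day 1, where the control libraries had 11.7% and 11.9%. At day 3 they had 4.96% and 5.44%. They had 3.42% at day 6, 3.13% and 3.23% at day 9, and 2.12% and 4.34% at day 11. Every *Dnmt1* KO library from day 3 on lay below every control library. In the flanks, *Dnmt1* KO cells had 48.4% and 44.1% at day 1, where the control libraries had 52.8% and 54.4%. The *Dnmt1* KO mean of day 1 was 86.3% of the control mean there. Later flank levels of *Dnmt1* KO cells were 15.8% and 20.5% at day 3, and 10.8% to 14.6% in the 5 later libraries. Averaged over days 3 to 11, the difference from control was -8.03 percentage points over the genes and -36.9 over the flanks. As a percent of the control level of the same day, the genes kept 39.4% at day 3 and 29.8% on average over days 6, 9 and 11, and the flanks kept 34.6% and 25.8%.

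**Figure D1:**
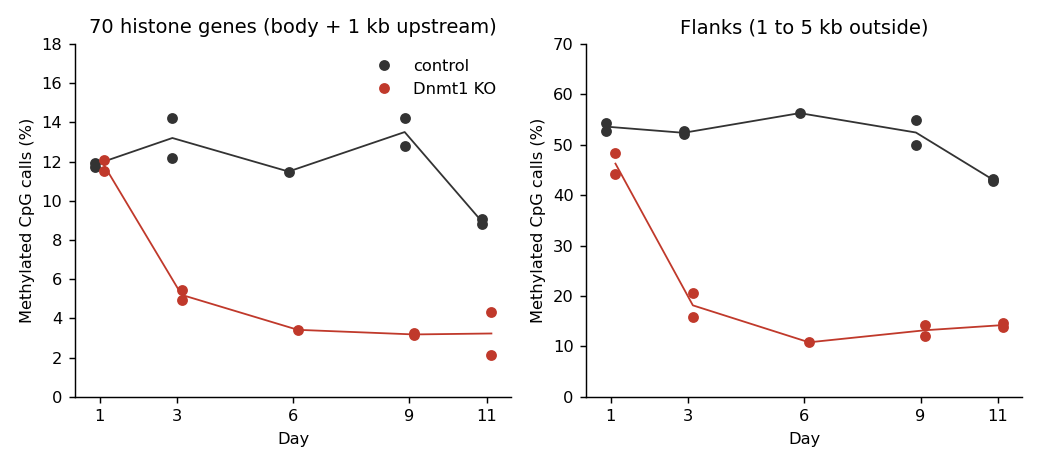
Percent of methylated CpG calls over the 70 histone genes with 1 kb upstream (left) and over their flanks (right) against the day, with a point per library and lines through the means; the vertical scales differ. At day 1 the *Dnmt1* KO libraries lie on either side of both control libraries of that day over the genes. Over the flanks they lie below both, within the range of all control libraries. From day 3 they lie below all control libraries in both panels, at 2.12% to 5.44% over the genes and 10.8% to 20.5% over the flanks.

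Methylation within the histone genes was concentrated away from the coding sequence. The coding blocks had 2.48% ± 1.36 in control (SD, n = 9, from 1.03% to 4.97%) and the 1 kb upstream 8.43% ± 2.11. The rest of the annotated bodies (untranslated parts, introns and pseudogene bodies) had 33.1% ± 3.49. In *Dnmt1* KO cells of days 6 to 11 these parts had 0.597% ± 0.245, 2.19% ± 0.752 and 8.69% ± 2.58 (SD, n = 5). By library the coding level of these *Dnmt1* KO cells was 0.191% to 0.791%, beside a mitochondrial share of 0.276% to 0.467% in the same libraries. In the control libraries, whole regions of genes with annotated bodies under 2 kb had 3.35% to 7.19%. Regions of genes with longer bodies, without the CpGs that also lay in a region of a shorter one, had 24.7% to 39.0%. Pooled levels, also those above, therefore mix short and long gene models of unlike level.

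Binned by distance from the coding start, calls in control were 1.33% methylated in the last 250 bp before it and 1.64% in the first 250 bp after it. The level was 12.6% between 1000 and 750 bp upstream and 15.6% between 750 and 1000 bp downstream. *Dnmt1* KO libraries of days 6 to 11 had 0.799% and 0.627% next to the start and 3.87% and 3.51% in the outer pair of bins. The low stretch therefore spanned the start on both sides, and the decrease was visible in its shoulders.

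**Figure D2:**
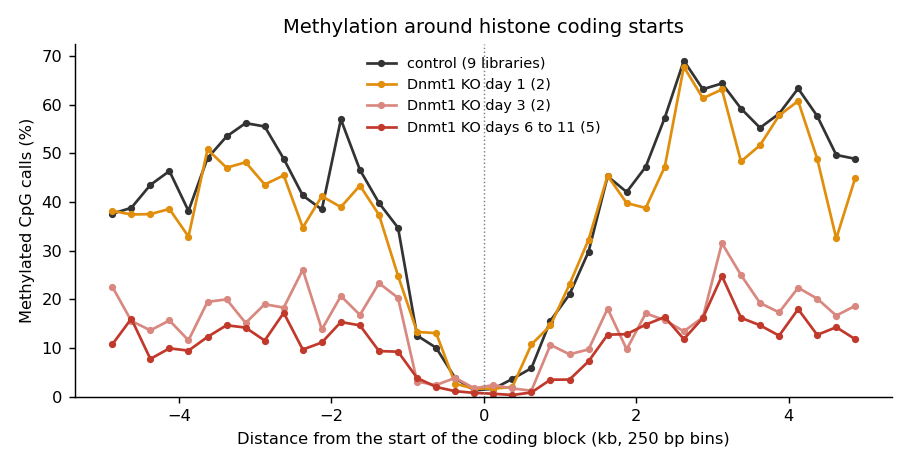
Percent of methylated CpG calls in 250 bp bins by distance from the start of the largest coding block, for control and for *Dnmt1* KO at day 1, day 3 and days 6 to 11, calls summed over libraries and members. All curves dip at the coding start, to 1.33% in control, and all rise outside the dip. The *Dnmt1* KO curves from day 3 rise least. Their highest bin (3000 to 3250 bp downstream) has 31.5% at day 3 and 24.8% at days 6 to 11, and control 64.3%. The *Dnmt1* KO day 1 curve lies below control in most of the outer bins.

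Every member was accounted for before single genes were tested. Of the 70 genes, 47 had at least 10 calls in each of the 10 groups of genotype and day, 20 had calls but too few, and *Hist1h2ao*, *Hist1h2ap* and *Hist1h2br* had 0 calls in all 18 libraries. Together with *Hist1h2bq* (5 calls), these are the 4 genes whose CpGs were all in 50 bp of sequence found exactly at another histone gene. *Hist1h4m* and *Hist1h4n*, which lie among them on chromosome 13, had 97.2% and 98.6% of their CpGs in such sequence and 36 and 118 calls. Of the 4915 CpGs of the members, 2238 (45.5%) lay in such shared sequence. Reads that align equally well in several places can leave no call, but whether this set the coverage there was not tested. Shared CpGs had 0.185 calls per CpG and unshared ones 0.476, as means over 18 libraries, against 0.457 in the flanks. Shared CpGs were 1.84% methylated in control and unshared ones 15.3%.

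**Figure D3:**
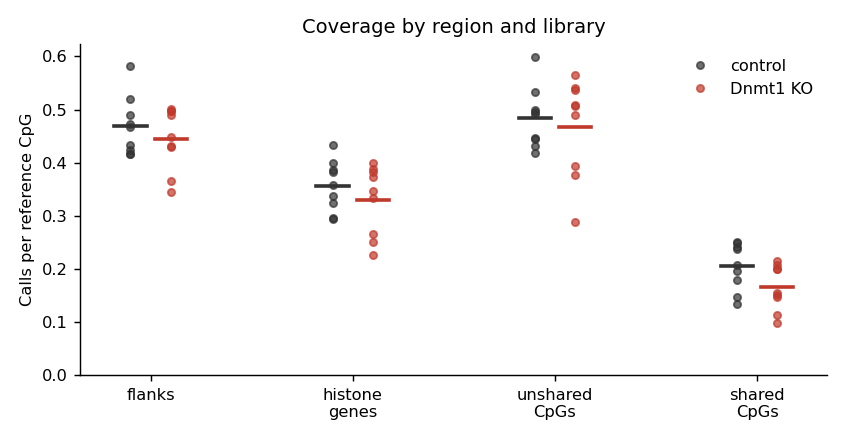
Calls per reference CpG in each library over the flanks, all CpGs of the histone genes, and the CpGs of the histone genes outside and inside sequence that 50 bp of another member matches exactly, with bars at the means. Shared CpGs lie between 0.0979 and 0.251 calls, below the unshared ones in both genotypes.

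Among the 47 genes with enough calls, the median level in control was 3.03%. Levels under 1% were found for 11 genes, under 5% for 28 and under 10% for 38, and 46 of the 47 lay below their own flanks. CpG density and control level ran against each other over these genes (Spearman's rho -0.49, n = 47 genes). Both were taken over body plus 1 kb upstream, so the length of the annotated body enters the value. These genes share libraries, and 51 of the 70 members overlap the region of another member, so the value is a description.

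The exceptions above 10% were 9 genes, of which 4 were above 20%. *Hist1h1t* had 54.8% of 126 calls methylated in control (95% exact interval 45.6 to 63.6), *Hist1h2aa* had 45.2% of 228 and *Hist1h2be* 42.8% of 1611. *Hist1h2bc* had 25.7%, *Hist2h2bb* 18.2%, *Hist1h2ab* 17.9%, *Hist2h2be* 15.7%, *Hist2h2aa2* 14.6% and *Hist1h4c* 12.6%. *Hist2h3b* had 9.70%, just under that level. These levels are high by the choice of the highest members.

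Among these, long gene models were set apart by what surrounds the coding part. *Hist1h2be*, *Hist1h2bc* and *Hist2h2bb*, all genes of H2B, have annotated bodies of 37383, 8290 and 9281 bp. Over the coding block plus 1 kb upstream alone, their control levels were 1.84%, 1.72% and 1.75%. The models of *Hist1h1t* and *Hist1h2aa* are 909 and 390 bp long, so for them this window covers nearly the same sequence as the whole region and does not place the methylation within it.

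**Figure D4:**
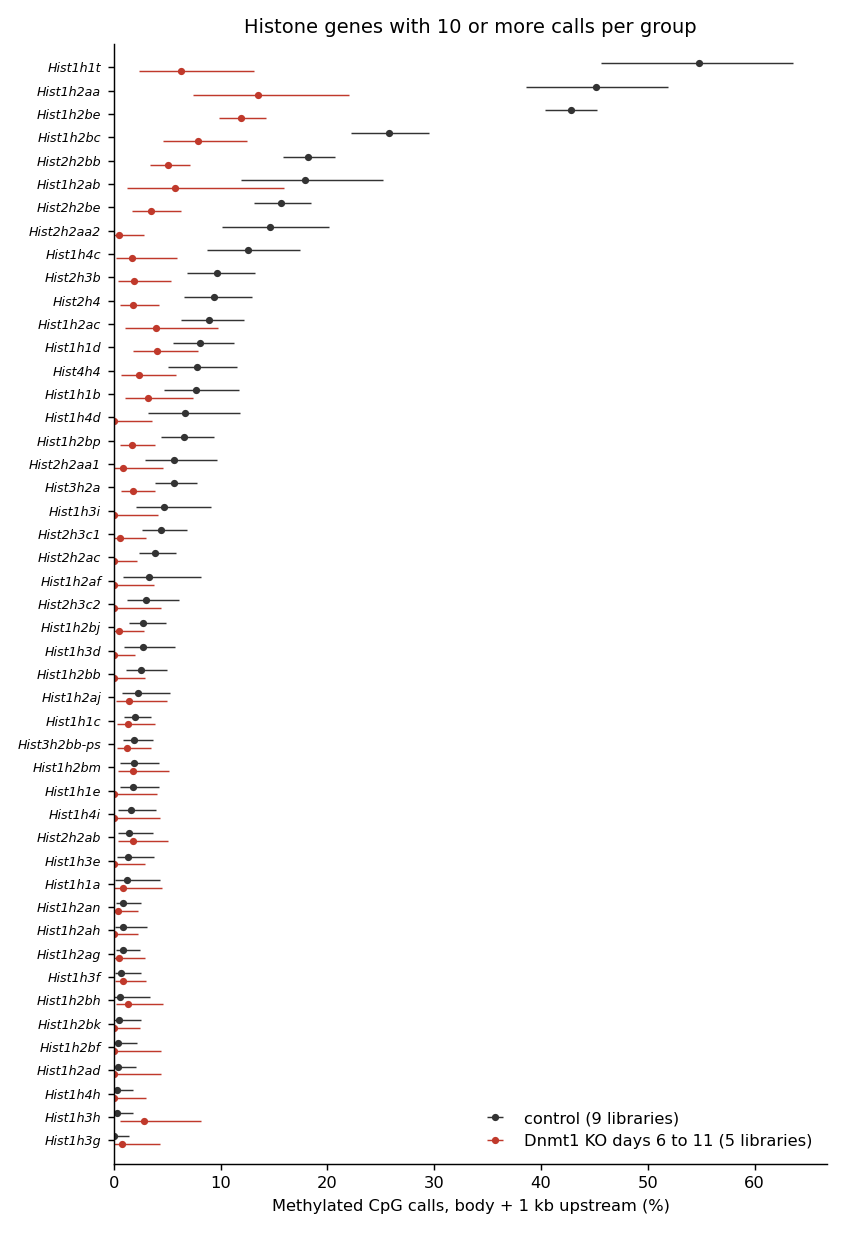
Percent of methylated CpG calls over body plus 1 kb upstream for the 47 histone genes with at least 10 calls per group, summed over 9 control libraries or 5 *Dnmt1* KO libraries of days 6 to 11; bars are 95% exact intervals for counting error. *Hist1h1t* leads in control with 54.8%, most genes lie under 10%, and no gene exceeds 13.5% in *Dnmt1* KO cells.

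Each gene was tested with a quasi-binomial model of its methylated and unmethylated calls, with Benjamini-Hochberg adjustment over 22285 autosomal genes, and called where adjusted p was under 0.05 and the difference at least 10 percentage points. Over days 3 to 11, 6 of 47 histone genes were called lower in *Dnmt1* KO cells, where 95.1% of all genes tested were. No histone gene was called higher. The median difference was -3.30 percentage points over the histone genes and -43.7 over all genes tested, from median control levels of 3.43% and 69.2%.

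A gene below 10% in control cannot fall by 10 points. Averaged over the control groups of days 3 to 11, 35 of the 47 histone genes (74.5%) started below 10%, and 3.13% of all genes tested did. Without a minimum difference, 12 of 47 histone genes were called lower (96.5% of all genes tested). Of the 35 that started low, 3 were among these, as were 22.1% of all genes that started low. Of the 12 that started at 10% or more, 6 passed with the minimum difference, against 98.1% of all such genes. The median difference in this band was -14.8 points for histone genes and -44.1 for all genes. Starting level and number of calls were not matched within it, so these shares are not a comparison at equal levels.

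Single days gave few calls. At day 1, 0 of 47 histone genes were called (2.55% of all genes lower), and 1 had an unadjusted p under 0.05 in the quasi-binomial test. Limma on log ratios called 0 of all 22285 genes at day 1, so its 0 calls say nothing about the histone genes. There were 2 calls at day 3 (82.3% of all genes), 4 at day 6 (83.8%), where each genotype had 1 library and the spread was taken from the other days, 4 at day 9 (87.1%) and 3 at day 11 (85.7%). A comparison within *Dnmt1* KO cells avoids the question of the control line, but in it loss of *Dnmt1* and time in culture cannot be told apart. Control levels over the histone genes were 11.8% at day 1, 13.5% at day 9 and 8.93% at day 11. Within *Dnmt1* KO cells, 9 of 47 histone genes were lower at days 6 to 11 than at day 1 (91.2% of all genes). The count was 4 of 39 without *Dnmt1* KO day 1 replicate 2 (85.9% of all genes), 4 of 35 without day 9 replicate 1 (91.6%) and 5 of 34 without day 9 replicate 2 (91.4%).

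**Figure D5:**
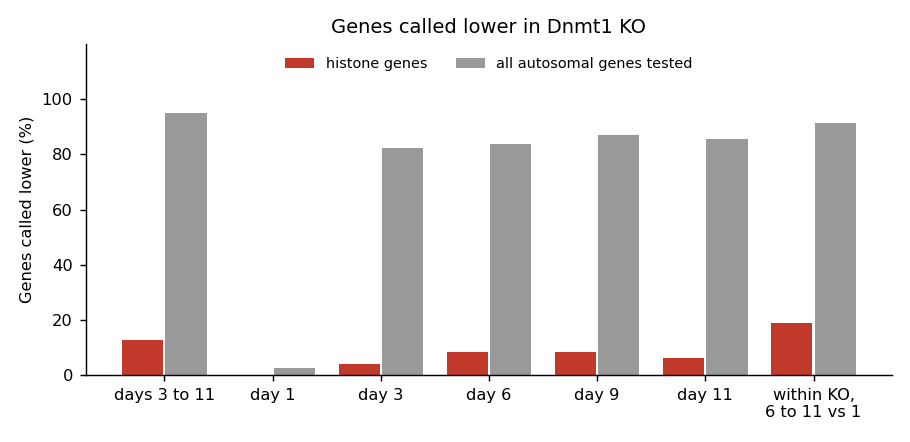
Percent of the 47 histone genes tested and of all 22285 autosomal genes tested that were called lower in *Dnmt1* KO cells, for each contrast with control and for days 6 to 11 against day 1 within *Dnmt1* KO cells. The histone bars range from 0% at day 1 to 19.1% within *Dnmt1* KO cells, and the bars of all genes stand at 82.3% or above except at day 1.

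*Hist1h1t* and *Hist1h2aa* had the largest of the 6 called differences, from 288 and 459 calls over 18 libraries. *Hist1h1t* had a lowest, median and highest level of 11.8%, 61.1% and 91.7% over 9 control libraries with 2 to 24 calls each. In *Dnmt1* KO cells it had 38.9% and 37.5% at day 1, 62.5% and 4.17% at day 3, 0% at day 6, 0% and 26.7% at day 9, and 0% and 11.8% at day 11. Genotypes overlapped, through the lowest control library (day 11 replicate 1) and *Dnmt1* KO day 3 replicate 1. The difference over days 3 to 11 was -43.6 points (adjusted p = 0.00094), and within *Dnmt1* KO cells -32.0 points (adjusted p = 0.037). Without 1 library the first call held in every fit that still tested the gene, whereas the second was lost without any of 5 libraries (adjusted p from 0.051 to 0.12).

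*Hist1h2aa* had 22.8%, 53.8% and 100% as lowest, median and highest of 9 control libraries with 2 to 57 calls. In *Dnmt1* KO cells it had 20% and 57.1% at day 1, 70.6% and 8.20% at day 3, 18.4% at day 6, 0% and 25.0% at day 9, and 9.38% and 7.14% at day 11. The pairs of days 1 and 3 were far apart, and genotypes overlapped. The difference was -32.4 points (adjusted p = 0.019), and within *Dnmt1* KO cells -33.8 points (adjusted p = 0.041). The first call was lost without control day 3 replicate 2 (adjusted p = 0.069) or *Dnmt1* KO day 3 replicate 2 (-20.2 points, adjusted p = 0.20), and the second fell to -6.46 points without *Dnmt1* KO day 1 replicate 2 (adjusted p = 0.77). Its neighbour *Hist1h2ba*, whose region shares most of these CpGs, was short of calls for the test, with 43.3% in control and 8.86% of 79 calls at days 6 to 11. The flanks of this pair had 82.3% ± 5.05 in control (SD, n = 9), next to 79.6% ± 7.28 around *Hist1h2al*, and 13.1% ± 9.94 in *Dnmt1* KO cells of days 6 to 11 (SD, n = 5).

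*Hist1h2al*, an H2A gene that lies alone on chromosome 13 far from the clusters, was also short of calls. It had 37.5% of 80 calls in control, 3.45% of 58 at day 3 and 0 of 45 at days 6 to 11 of *Dnmt1* KO, which allows up to 6.67%. Its flanks had 79.7% in control and 34.4% at those days.

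Linker histone genes other than *Hist1h1t* were under 10% in control over all libraries. *Hist1h1d* had 8.07% in control and 4.08% in *Dnmt1* KO cells of days 6 to 11, and *Hist1h1b* had 7.69% and 3.23%. *Hist1h1c*, *Hist1h1e* and *Hist1h1a* had 1.98%, 1.82% and 1.23% in control and 1.35%, 0% and 0.826% later. None of these 5 passed the test in either direction over days 3 to 11. All averaged under 10% over the control groups of those days, so the minimum difference left no room for a call lower. By library, *Hist1h1b* reached 33.3% in control (lowest 0%, median 2.86%), *Hist1h1d* 14.3% (lowest 0%, median 7.89%) and *Hist1h1a* 7.14% (lowest and median 0%).

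H2B genes held most of the members with the most calls, some of them through long annotated bodies. *Hist1h2be* ranged from 33.7% to 49.2% in control (median 44.0%, 128 to 230 calls per library). In *Dnmt1* KO cells it had 43.2% and 37.7% at day 1, 17.5% and 14.2% at day 3 and 9.95% to 15.5% in the 5 later libraries, so no *Dnmt1* KO library from day 3 reached a control library. Its difference was -31.4 points (adjusted p = 5.4e-10), and over its coding window it was -2.99 points (adjusted p = 0.11).

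*Hist2h2be* ranged from 11.4% to 27.5% in control, with a median of 15.7%. It had 8.11% and 24.4% at day 1 of *Dnmt1* KO, 2.33% and 8.93% at day 3, 2.88% at day 6, 0% and 9.80% at day 9 and 0% and 3.39% at day 11. From day 3 all lay below the lowest control library. Its difference was -13.6 points (adjusted p = 0.00086). *Hist1h2bc* fell by 19.9 points (adjusted p = 0.0010), with control libraries from 9.38% to 60% and later *Dnmt1* KO libraries from 4% to 11.8%, which overlap.

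Of the Hist2 genes on chromosome 3, all 10 were tested and 2 were called lower over days 3 to 11 (95.1% of all genes tested). These were *Hist2h2be* and *Hist2h2aa2*, an H2A gene. *Hist2h2aa2* had 20.2% in control and 1.41% in *Dnmt1* KO averaged over days 3 to 11 (adjusted p = 0.0064). Without either day 6 library the difference was -9.22 points (adjusted p of 0.053 and 0.054). It has a near-identical copy, *Hist2h2aa1*, and 75.0% of its CpGs lay in shared sequence, so the split of calls between them is uncertain. *Hist2h2bb*, *Hist2h4* and *Hist2h3b* had differences of -9.26, -9.50 and -9.91 points with adjusted p of 0.0034, 0.0027 and 0.028, just short of 10 points. *Hist2h2ac* was at 3.30% and 0% (adjusted p = 0.032). *Hist2h2ab*, *Hist2h2aa1*, *Hist2h3c1* and *Hist2h3c2* had 1.45%, 5.63%, 4.38% and 3.03% in control and 1.75%, 0.840%, 0.546% and 0% at days 6 to 11 of *Dnmt1* KO, and did not pass the test over days 3 to 11. Apart from *Hist2h2aa1*, they averaged under 10% over the control groups of those days and could not be called lower.

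On chromosome 11, *Hist3h2a* had 5.59% in control and 1.77% at days 6 to 11 of *Dnmt1* KO, and the pseudogene *Hist3h2bb-ps* had 1.86% and 1.2%. *Hist3h2ba* (5% and 0 of 76 calls, which allows up to 3.95%) fell short of the minimum by a single call in a group and was not tested. *Hist4h4*, alone on chromosome 6, had 7.82% and 2.31%. None of the tested genes passed over days 3 to 11. They averaged under 10% over the control groups of those days, so the minimum difference left no room for a call lower. Within *Dnmt1* KO cells 3 genes that were not called against control passed, *Hist4h4* with a difference of -14.1 points (adjusted p = 0.046), *Hist2h2bb* with -14.97 points (adjusted p = 0.0034) and *Hist1h2af*, named after its values were seen, with -21.2 points (adjusted p = 0.013). The *Hist4h4* call was lost without any of 5 libraries (adjusted p from 0.055 to 0.25), and that of *Hist2h2bb* without *Dnmt1* KO day 1 replicate 1 (-9.65 points, adjusted p = 0.072). *Hist1h2af* was at 3.25% over all control libraries. At day 1 of *Dnmt1* KO it had calls in 1 of the 2 libraries, 33 calls with 21.2% methylated, so its difference within *Dnmt1* KO cells rests on a single library at day 1.

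By family, H3 genes were the least methylated in control, with 2.92% ± 0.948 (SD, n = 9), followed by H4 with 5.25% ± 1.81, H2A with 6.44% ± 1.60, H1 with 7.73% ± 3.82 and H2B with 17.3% ± 3.16. H4, H2A and H1 do not differ beyond their spread in that order. Over coding blocks alone the families lay between 1.2% ± 0.691 (H4) and 3.80% ± 2.53 (H2B), within their spreads. In *Dnmt1* KO cells of days 6 to 11 whole regions had 0.643% (H3) to 4.75% (H2B).

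The 5 members with the most calls were *Hist1h2be*, *Hist2h2bb*, *Hist2h2be*, *Hist3h2a* and *Hist1h2bc*, with 3194, 1984, 1193, 1168 and 978 calls. All but *Hist3h2a* are H2B genes, and 3 of the 5 were called lower over days 3 to 11 (95.1% of all genes tested).

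Genes that act on histone mRNAs without being histone genes went with most genes over body plus 1 kb upstream. Gene length was not matched to the histone genes, and values at gene starts follow below. Of 24 listed symbols for factors of histone gene transcription and mRNA 3′ processing, 22 were tested. All 22 were called lower over days 3 to 11 (95.1% of all genes), with a median difference of -34.2 points. *Npat*, which brings cyclin E-Cdk2 signals to histone promoters, went from 56.9% to 19.0%, and *Slbp*, which binds the stem-loop, from 45.9% to 18.1% (adjusted p = 1.0e-09 and 1.7e-06). Of 17 listed genes for replication-independent histone variants, 12 were tested and 8 were called lower, with a median of -21.2 points. *H3f3a*, a gene of H3.3, went from 34.6% to 10.6%. *H2afx* and *H2afz*, genes of H2A.X and H2A.Z, were at 0.568% and 1.91% in control and 0.355% and 1.33% in *Dnmt1* KO.

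In a fixed window at gene starts the contrast with all genes was smaller. From 1 kb upstream to 500 bp downstream of the annotated start, 3 of 38 histone genes tested were called lower over days 3 to 11, where 29.2% of all genes with enough calls were. Over the coding block plus 1 kb upstream, a window added after the data were seen, 4 of 42 were called (79.7% of all genes). For genes with introns the largest coding block can lie inside the gene, so for them this is not always a start window. Over all genes its median difference at days 3 to 11 was -41.9 points, against -5.28 in the start window. Within *Dnmt1* KO cells, days 6 to 11 against day 1, the counts were 3 of 38 in the start window (12.7% of all genes) and 4 of 42 in the coding window (68.4% of all genes). In the start window 1 of 15 processing factors and 2 of 7 variant genes were called over days 3 to 11. Their median differences there were -1.47 and -3.54 points, from median control levels of 2.02% and 4.73%.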

How the data were processed

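Whole-genome bisulfite libraries (18, ESCs) were analysed. Per the methods, Trim Galore, Bismark alignment to NCBIM37, deduplication and methylation calling were run in that order by the authors; the submitters' processing notes name Bismark 0.12.3, and the methods name another release. The deposited tables held, per cytosine, counts of methylated and of unmethylated calls, and a deposited percent that equalled the share of the counts at every entry, within 1e-06 percentage points, and was not used further. Nothing was normalized. Any coverage minimum before deposition is not given in the sources used here.

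Calls of both strands were added up over each gene body plus 1 kb upstream for all GENCODE vM1 autosomal genes. Genotype effects were tested by likelihood ratio in a quasi-binomial model, with the dispersion within groups moderated by limma 3.58.1 (R 4.3.3, squeezeVar, floor of 1) and Benjamini-Hochberg adjustment over all genes with at least 10 calls in each of 10 groups. The lone day 6 libraries were assumed to vary like the others. The test was tried before use on simulated data with less spread between libraries than these data, so that trial does not show how it performs here. Summed levels have an SD over libraries and no p. Intervals are 95% exact (Clopper-Pearson), and a count of 0 was taken to allow 3 calls. Both cover counting error only, since calls of 1 read and PCR copies are not independent. P-values set each difference against the spread between libraries that the series calls biological replicates. That spread was drawn towards the one shared by all genes tested, with a prior of 12.9 degrees of freedom.

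Named were the germline and H1 genes, all Hist2, Hist3 and Hist4 genes, the 10 highest in control and the 5 with most calls; *Hist1h2al*, *Hist1h2af* and the genes without calls or without the stem-loop were named after their values were seen. Members and lists were chosen with earlier results of these data known. Sequences were read from the NCBIM37 genome. Tables ran in Python 3.11.15.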

Additional observations from a re-analysis of the deposited data

Results flagged for a closer look

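Levels and calls per CpG of the histone genes, their flanks and their parts were screened for a library far from the others, in 20 groups of 5 or 9 libraries, of which chance marks about 1 in 20. Of these, 1 group was marked, as many as chance gives. Control day 11 replicate 1 had 0.616 calls per CpG in the 1 kb upstream of the histone genes, the highest of the 9 control libraries. Its methylation level there was 5.78%.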

How the results depend on the processing

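Coverage set the limits: 23 of 70 histone genes could not be tested, single libraries gave some called genes fewer than 10 calls, and a gene under 10% in control could not be called with the minimum difference. Calls lower over days 3 to 11 (6 of 47) became 12 with no minimum difference (96.5% of all genes). They became 3 of 13 genes at a minimum of 30 calls per group (96.9%) and 3 of 38 in the fixed start window (29.2%). Leaving out each library in turn changed the number of histone genes tested as well. The fewest calls were 4 of 34, without *Dnmt1* KO day 3 replicate 2 or day 9 replicate 2 (95.5% and 95.4% of all genes). The most were 9 of 44, without *Dnmt1* KO day 11 replicate 2 (95.1%). For day 3 (2 calls) both the start and the coding window gave 0 (2.99% and 51.0% of all genes). Leaving out a library of that day left 1 of its genotype. The median difference of the histone genes (-2.08 points) was then between -2.79 and -1.99. For day 6 (4 calls) the values were 2 at a minimum of 30 calls (89.2% of all genes), 0 in the start window (4.15%) and 2 in the coding window (55.0%). For day 9 (4 calls) they were 0 and 1 in those windows (5.37% and 60.3% of all genes). With a library of that day left out, the median difference (-3.08 points) was between -4.08 and -0.258. For day 11 (3 calls) the counts were 5 with no minimum difference (85.9% of all genes), 5 at a minimum of 1 call (71.1%) and 0 in the start window (4.07%). With a library of that day left out, the median difference (-2.04 points) was between -2.06 and 0. Within *Dnmt1* KO cells (9 calls) the counts were 4 of 13 at a minimum of 30 calls (94.7% of all genes), 3 of 38 in the start window (12.7%) and 4 of 42 in the coding window (68.4%). Leaving out a library of days 6 to 11 gave from 4 of 35, without day 9 replicate 1 (91.6%), to 7 of 44, without day 11 replicate 2 (90.6%). Day 1 gave 0 calls throughout, from 0 to 0 with a library left out. *Hist2h2bb* within *Dnmt1* KO cells was reversed in the coding window, at 0.98 points (adjusted p = 0.48). With limma, *Hist1h2aa*, *Hist1h2af* and *Hist4h4* were lost within *Dnmt1* KO cells (adjusted p of 0.25, 0.065 and 0.065). The start and coding windows hold less sequence; beyond that the cause was not tested.

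The difference over the histone genes (-8.03 points) was -6.92 as an unweighted mean, -10.5 without shared CpGs, -3.60 in the start window, -3.62 in the coding window, and -8.30 to -7.75 with a library left out. That over the flanks (-36.9) was -41.3 as an unweighted mean, -33.8 for flanks of the start window, and -37.6 to -34.1 with a library left out. In control, genes minus flanks (-39.2) was -46.0 as an unweighted mean, -43.3 for the coding window, and -39.9 to -38.5 with a library left out. Calls per CpG in genes over flanks (0.750) became 1.04 without shared CpGs. The other 151 of 186 repeats of these summaries kept the value within 1 SD or the count within 1.5 times.

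Whether replicate numbers pair the samples was not settled. The correlation over genes of replicate 1 minus replicate 2 between genotypes was -0.014, 0.013, -0.0031 and 0.0021 for days 1, 3, 9 and 11. Single genes hold few calls per library, which can hide a pairing in such a correlation. With day and replicate number as a replicate block, 5 of 47 genes were called over days 3 to 11 (94.8% of all genes), and 0, 2, 6 and 3 genes for days 1, 3, 9 and 11 alone (0%, 81.1%, 86.3% and 84.4% of all genes); *Hist1h2aa* was then lost (adjusted p = 0.085).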

Other observations

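The pair of *Dnmt1* KO libraries of day 3 differed at the germline members, which was noticed after the values were seen and was not tested. Replicate 1 had 62.5% of 8 calls methylated at *Hist1h1t* and replicate 2 had 4.17% of 24. At *Hist1h2aa* they had 70.6% of 17 and 8.20% of 61, and at *Hist1h2ba*, whose region shares most of those CpGs, 54.5% of 22 and 8.47% of 59. Over the flanks of all members the same libraries had 15.8% and 20.5%, in the opposite order.

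The histone cluster of 5 genes on chromosome 13 from *Hist1h2ah* to *Hist1h2bj* was the least methylated locus by its control mean, with 1.59% ± 1.13 (SD, n = 9 libraries) against 44.6% ± 8.45 over its flanks. In *Dnmt1* KO cells of days 6 to 11 it had 0.156% ± 0.349 (SD, n = 5) and its flanks 15.3% ± 5.41. The large cluster of 29 genes from *Hist1h4h* to *Hist1h1a*, which holds *Hist1h1t* and the long model of *Hist1h2be*, had 15.1% ± 2.80 in control and 4.33% ± 1.30 later. The Hist2 cluster of 10 genes on chromosome 3 had 12.6% ± 1.46 and 2.70% ± 1.43, with flanks at 70.1% ± 5.81 and 20.3% ± 4.62. These loci were named after their values were seen.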
